A study of Homo sapiens with 4 samples.

Results

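MCFD2 and 9 partner genes of protein export from the endoplasmic reticulum (ER) were followed in SAS cells, a human oral squamous carcinoma line, with and without depletion of STAU1. STAU1 (Staufen 1) is a protein that binds double-stranded RNA. The 10 genes are listed by name and were matched by symbol to the gene identifiers of the count table, which lists 67008 genes. They are the adaptor MCFD2, the cargo receptors LMAN1, LMAN2 and SURF4, and the COPII coat subunits SEC23A, SEC23B, SEC24A, SEC24B, SEC24C and SEC24D. They were named with the comparison of shSTAU1 against Ctrl already known, so their values in that comparison are given as a description, with no p-value.

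Ctrl comprised 2 libraries from SAS cells infected with virus carrying shLuc, a control short hairpin RNA (shRNA). The shSTAU1 group comprised 2 libraries from SAS cells infected with virus carrying an shRNA to STAU1. All 4 are labelled wild type in genotype, and each group used 1 shRNA, so an effect of STAU1 loss and an effect of that shRNA sequence cannot be told apart. No source used here says that the libraries came from separate cultures, and p-values then measure only the spread between these libraries. Libraries were made from total RNA with an exome capture kit, which pulls down mainly coding sequence. The libraries held 33009118 and 32206655 counts in Ctrl, and 35180221 and 36301574 in shSTAU1.

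The labels also name C3H 10T1/2, a mouse fibroblast line, beside a human oral cancer cell type. The 10 epithelial markers, among them keratins and CDH1, were all detected in every library, with summed levels of 18767 and 17008 CPM (counts scaled to library size) in Ctrl and 21203 and 17365 CPM in shSTAU1. The most abundant was KRT8 in both Ctrl libraries and KRT5 in both shSTAU1 libraries. The 10 fibroblast markers summed to 27.6, 32.2, 26.7 and 18.1 CPM in Ctrl replicates 1 and 2 and shSTAU1 replicates 1 and 2. THY1 had no read in any library, and COL3A1, DCN and LUM had at most 1 read in each. In edgeR's quasi-likelihood test with Benjamini-Hochberg adjustment, the basal keratin KRT5 rose (log2 fold change 0.65, adjusted p = 0.0408) and the collagen chain COL1A1 fell (log2 fold change -1.35, adjusted p = 0.0360), the 2 marker genes that passed. That is 1 of 10 tested epithelial markers (10.0%) and 1 of 6 tested fibroblast markers (16.7%), beside 2.6% of all genes. Other members of the lists had values of the opposite sign: the integrin ITGB4 had a log2 fold change of -0.67 (edgeR adjusted p = 0.0765) and the collagen chain COL1A2, at 40 to 128 counts, had 1.01 (adjusted p = 0.185), both named after their values were seen. Without Ctrl replicate 1 neither passed, as 0 of all genes then did (1502 at an unadjusted edgeR p under 0.05). Their part in the results was not tested.

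Proteins made on ER-bound ribosomes leave the ER in vesicles coated with COPII. The GTPase SAR1 recruits the SEC23-SEC24 inner coat, SEC24 reads sorting signals on cargo or on its receptor, and the SEC13-SEC31 cage closes the vesicle. LMAN1 (ERGIC-53) is a mannose-binding receptor that cycles between the ER and the intermediate compartment, and MCFD2 is a small soluble calcium-binding protein that attaches to it. Loss of either gene in people causes combined deficiency of coagulation factors V and VIII.

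MCFD2 (ENSG00000180398) lies on the minus strand at chr2:46901870-46941855 in GRCh38. Its GENCODE 29 transcript ENST00000409105.5 has 5 exons, a coding sequence of 441 bases and a 3′ untranslated region (3′UTR) of 3589 bases. Sites in this 3′UTR are shown because it holds 3 copies of the purine word AAGAGAAA, at positions 153, 169 and 386 from the stop codon. The word had been picked from fold changes of these same libraries, so its presence is a description. All copies are in exon 5. The first window is chr2:46905284-46905313 and the second is chr2:46905063-46905085, both read on the minus strand, with the word and the overlapping shorter form AAGAGAA in capitals.
MCFD2 copies at positions 153 and 169: gatAAGAGAAAtgaAAGAGAAGAGAAAtgg
MCFD2 copy at position 386: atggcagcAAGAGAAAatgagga

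Of 11831 genes with a scanned 3′UTR, 42 (0.35%) had 3 or more copies of AAGAGAAA in the transcript sequence. Among the 2317 genes whose 3′UTR was within 1.5 times the length of that of MCFD2, 12 (0.52%) did. The 8-base word was not found in the 3′UTR of the other 8 measured genes. LMAN1 had 1 copy of the 7-base form AAGAGAA, which 43.25% of genes with a 3′UTR of like length carry. SEC24A had 1 copy of the other 7-base form, AGAGAAA, and SEC24C had 2. Of genes with a 3′UTR of like length, 54.68% for SEC24A and 27.48% for SEC24C carry either form. LMAN2, SEC23A, SEC23B, SEC24B and SEC24D had neither form, and the 3′UTR scanned for SEC24B was only 21 bases long. The SEC24A site is chr5:134726207-134726229 on the plus strand in exon 23 (GRCh38), given with AGAGAAA in capitals. The SEC24C sites, not printed, are chr10:73771147-73771169 and chr10:73771564-73771586 on the plus strand in exon 24. The LMAN1 site is chr18:59329579-59329601 on the minus strand in exon 13, given with AAGAGAA in capitals.
SEC24A: attcagctAGAGAAAtattatag
LMAN1: aacactgaAAGAGAAtatgccag

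Promoters were searched in RefSeq windows of 300 bases (GRCh38.p14, 250 bases before the start and 50 after), which matched 9 of the 10 genes through 12 entries; the other is SEC24D. The letters TGACGTGG, the core of the element read by ATF6 and XBP1 of the unfolded protein response, occurred on either strand in 0.73% of 35116 promoters and in those of SEC24A and SEC23A. In SEC24A the match began 179 bases before the start (chr5:134648601-134648618, plus strand), and in SEC23A 4 bases before it (chr14:39103227-39103244, minus strand). The longer ER stress element ERSE (0.08% of promoters) and the cyclic AMP element TGACGTCA (1.85%) were not found in these windows. A CCAAT box (CCAAT on either strand, in 34.61% of promoters) occurred for MCFD2, LMAN1, LMAN2 and SEC23B. These letters are also the first bases of ERSE. The 2 matches of TGACGTGG are printed with the motif in capitals.
SEC24A: gtcggTGACGTGGcggcg
SEC23A: cctctTGACGTGGcagag

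STAU1 itself was examined first as a check of the labels. Its counts were 8362 and 8218 in the Ctrl libraries and 1449 and 1467 in the shSTAU1 libraries. STAU1 fell, with a log2 fold change of -2.59 (SE 0.13, edgeR adjusted p = 0.00103, n = 2 per group). Across the 14303 genes tested, 372 passed an adjusted p of 0.05, which is 2.6% of genes, with 161 higher (1.13%) and 211 lower (1.48%). The split was 132 higher and 272 lower when libraries were scaled by total counts, and 206 higher and 175 lower after a length and GC correction. Without Ctrl replicate 1 the count was 0 (1502 at an unadjusted edgeR p under 0.05) and STAU1, at -2.60, had an adjusted p of 0.490, while the other 3 fits with a library left out gave 64 genes (without Ctrl replicate 2), 2780 (without shSTAU1 replicate 1) and 2203 (without shSTAU1 replicate 2). The median log2 fold change of all tested genes was 0.01.

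MCFD2 was the export gene with the largest difference. Its counts were 5486 and 5014 in Ctrl and 1481 and 1678 in shSTAU1, or 163 and 153 CPM against 42.5 and 47.5 CPM after TMM (trimmed mean of M values) scaling. Both shSTAU1 libraries lay far below both Ctrl libraries. In bulk RNA, fewer cells with a transcript and less of it per cell cannot be told apart. The level in shSTAU1 was 28.5% of that in Ctrl, a log2 fold change of -1.81 (SE 0.14), and it ranged from -1.90 to -1.73 when any 1 library was left out.

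Among the 1968 genes at least as abundant as MCFD2 on average over the 4 libraries, only ANKRD1 and STAU1 had a lower log2 fold change, -3.15 and -2.59. Among all 14303 tested genes MCFD2 ranked 223rd from the lowest. Apart from ANKRD1 and STAU1, the genes with lower values were all less abundant than MCFD2. The plot of fold change against abundance shows both features. In the fit across all genes 1 of the 9 export genes, MCFD2, was among those past the threshold, in the lower direction, beside 2.6% of all genes (1.48% lower and 1.13% higher). Nothing is read from this count, since the contrast was known when the genes were named.

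**Figure D1:**
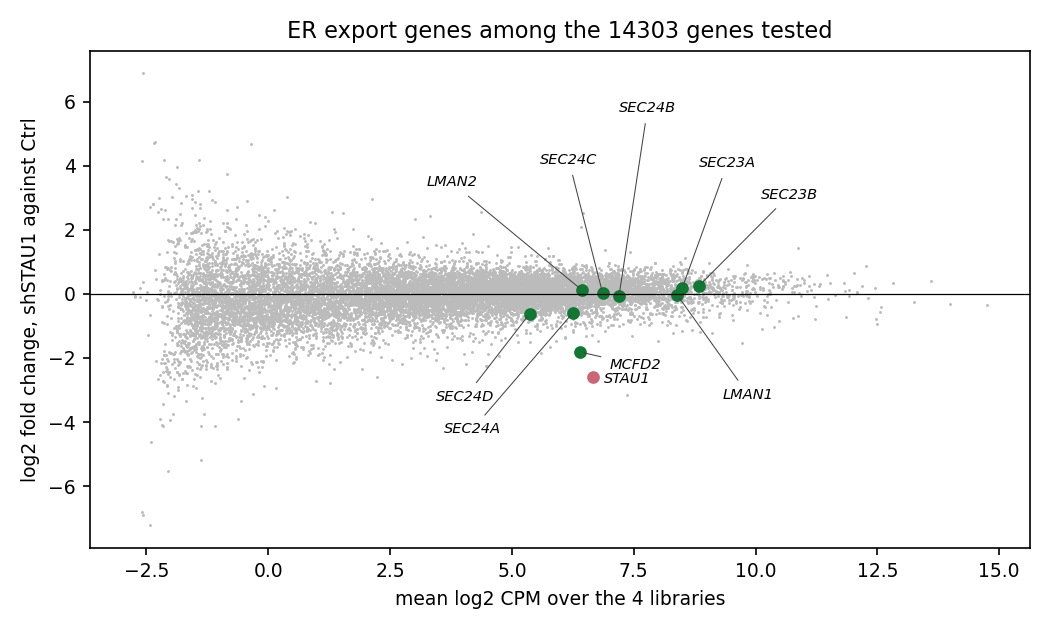
Log2 fold change of shSTAU1 against Ctrl (vertical axis) against mean log2 CPM over the 4 libraries (horizontal axis) for all 14303 tested genes (grey), the 9 measured export genes (green) and STAU1 (red). MCFD2, at -1.81, lies near STAU1 and outside the band of genes of its abundance, while the others lie between -0.62 and 0.24.

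MCFD2 overlaps TTC7A, a gene on the opposite strand, over 154 exonic bases, and the strand setting of the counting is not given in the sources used here. Reads of the pair in that stretch therefore cannot be told apart. TTC7A, chosen after its values were seen, had 53.1 and 51.5 CPM in Ctrl and 74.4 and 56.7 CPM in shSTAU1, with a log2 fold change of 0.33 (edgeR adjusted p = 0.267). An antisense gene that overlaps MCFD2 over 441 exonic bases had 0 counts in all 4 libraries.

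LMAN1 (ENSG00000074695, chr18:59327823-59359962, minus strand), the membrane partner that carries MCFD2, had 369 and 310 CPM in Ctrl and 355 and 311 CPM in shSTAU1. Both shSTAU1 libraries lay within the range of the Ctrl libraries. The log2 fold change was -0.03 (SE 0.14), and its sign turned among the fits with 1 library left out, which gave -0.15 to 0.10, and with the length and GC correction (0.065).

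MCFD2 and LMAN1 bind as a complex, so their levels were set side by side per kilobase of coding sequence. MCFD2 had 1.54 and 1.72 times the CPM per coding kilobase of LMAN1 in the Ctrl libraries, and 0.417 and 0.531 times in the shSTAU1 libraries. The order of the partners was thus opposite in the 2 groups on this scale. Per kilobase of whole transcript MCFD2 was below LMAN1 already in Ctrl, at 37.6 ± 1.68 against 61.5 ± 7.57 CPM per kilobase (SD, n = 2), so the order rests on the length used. The ratio between groups does not depend on that choice. How well each gene was captured was not measured, so comparisons between genes, here and below, are of captured reads.

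LMAN2 (VIP36; ENSG00000169223, chr5:177331562-177351852, minus strand) is a lectin of the early secretory pathway related to LMAN1. It had 84.5 and 83.6 CPM in Ctrl and 87.8 and 93.0 CPM in shSTAU1. Both shSTAU1 libraries were above both Ctrl libraries by a small margin, with a log2 fold change of 0.10 (SE 0.13). The SE was larger than the difference.

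SURF4 (ENSG00000148248, chr9:133361449-133376166, minus strand) is a receptor for soluble cargo with an amino-terminal export signal. It was listed at 0 in all 4 libraries. It sits among 14 consecutive protein-coding genes on chromosome 9, from 133205277 to 133528612, that were all listed at 0. These include RPL7A, a ribosomal protein gene that cells in general express (chosen after its values were seen). The 0 for SURF4 therefore cannot be read as lack of expression, and the cause was not tested. Of 19916 protein-coding genes in GENCODE 29, 4986 (25.04%) had no read in any library.

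**Figure D2:**
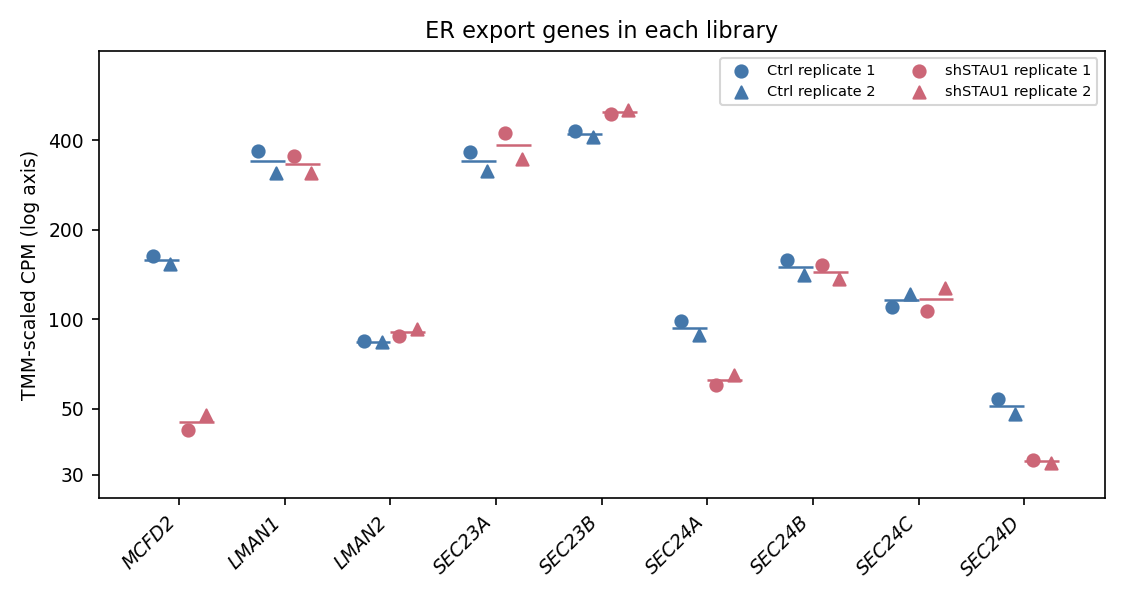
TMM-scaled CPM (log axis) of the 9 measured export genes in the 2 Ctrl (blue) and 2 shSTAU1 (red) libraries, with circles for replicate 1, triangles for replicate 2 and lines at the group means. The groups lie apart and lower in shSTAU1 for MCFD2, SEC24A and SEC24D, apart and higher for LMAN2 and SEC23B, and overlap for the rest.

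SEC23 is the inner coat subunit that stimulates SAR1 to hydrolyse GTP. SEC23A (ENSG00000100934, chr14:39031919-39109646, minus strand) is the paralog mutated in cranio-lenticulo-sutural dysplasia. It had 366 and 315 CPM in Ctrl and 424 and 346 CPM in shSTAU1, with a log2 fold change of 0.18 (SE 0.15), or 0.03 to 0.31 with 1 library left out. The groups overlapped, since shSTAU1 replicate 2 was below Ctrl replicate 1.

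SEC23B (ENSG00000101310, chr20:18507482-18561415, plus strand) is mutated in congenital dyserythropoietic anaemia type II. It had 428 and 411 CPM in Ctrl and 490 and 504 CPM in shSTAU1, with a log2 fold change of 0.24 (SE 0.12). Both shSTAU1 libraries were above both Ctrl libraries. Per coding kilobase SEC23B made up 53.9% and 56.5% of the SEC23 pair in Ctrl and 53.5% and 59.3% in shSTAU1. These shares overlapped between the groups.

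The SEC24 paralogs form the cargo-binding face of the coat and fall into the related pairs SEC24A with SEC24B and SEC24C with SEC24D, which differ in the sorting signals they bind. SEC24A (ENSG00000113615, chr5:134648789-134727823, plus strand) had 98.8 and 88.3 CPM in Ctrl and 60.1 and 64.8 CPM in shSTAU1. SEC24D (ENSG00000150961, chr4:118722823-118838683, minus strand) had 54.0 and 48.0 CPM in Ctrl and 33.6 and 32.9 CPM in shSTAU1. For both genes each shSTAU1 library was below each Ctrl library. The log2 fold change was -0.58 (SE 0.14) for SEC24A and -0.62 (SE 0.14) for SEC24D, or 66.8% and 65.2% of the Ctrl level. Leaving out any 1 library gave -0.66 to -0.50 for SEC24A and -0.69 to -0.53 for SEC24D. The same separation in the lower direction was seen for 28.0% of all tested genes.

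The other paralog of each pair showed no such separation. SEC24B (ENSG00000138802, chr4:109433772-109540896, plus strand) had 158 and 141 CPM in Ctrl and 152 and 136 CPM in shSTAU1, with a log2 fold change of -0.06 (SE 0.13). SEC24C (ENSG00000176986, chr10:73744384-73772161, plus strand) had 110 and 121 CPM in Ctrl and 107 and 128 CPM in shSTAU1, with a log2 fold change of 0.02 (SE 0.14). The groups overlapped for both genes. Their sign turned among the fits with 1 library left out, from -0.13 to 0.02 for SEC24B and from -0.12 to 0.15 for SEC24C. It also turned for SEC24B with the length and GC correction (0.0046) and for SEC24C with total-count scaling (-0.033).

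The make-up of the SEC24 family followed from these values. SEC24A and SEC24D together made up 38.4% and 36.1% of SEC24 CPM per coding kilobase in Ctrl and 28.4% and 28.6% in shSTAU1. These paralogs were joined after their values were seen, so the lower share restates their fold changes and is a description. The summed SEC24 level was 124 and 118 CPM per coding kilobase in Ctrl and 103 and 106 in shSTAU1, while the summed SEC23 level was 345 and 315 in Ctrl and 397 and 369 in shSTAU1. SEC24 was thus lower and SEC23 higher in both shSTAU1 libraries. The share of the SEC24A and SEC24B pair within the family overlapped between groups, at 58.9% and 55.4% in Ctrl and 57.8% and 53.4% in shSTAU1. SEC24A overlaps SAR1B, on the opposite strand, over 385 exonic bases, where reads of the pair cannot be told apart. SAR1B, chosen after its values were seen, had 2379 and 2202 counts in Ctrl and 2582 and 3194 in shSTAU1. Its log2 fold change was 0.25 (edgeR adjusted p = 0.324). SEC24C likewise overlaps AC022400.8 over 2293 exonic bases. AC022400.8 had 13 and 8 counts in Ctrl and 11 and 2 in shSTAU1.

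**Figure D3:**
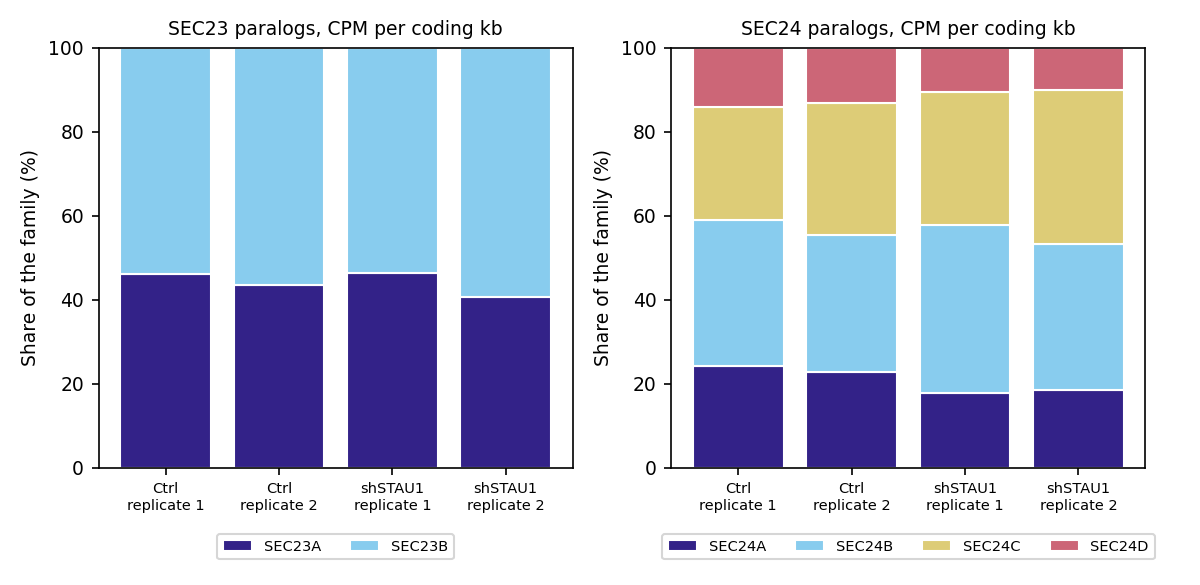
Share (%) of each paralog in the SEC23 family (left) and the SEC24 family (right), from CPM per kilobase of coding sequence, in each of the 4 libraries as stacked bars from 0 to 100%. SEC24A and SEC24D took 38.4% and 36.1% in the Ctrl libraries and 28.4% and 28.6% in the shSTAU1 libraries. They were joined after their values were seen. The SEC23 shares overlapped between the groups.

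Per coding kilobase, the order of levels in Ctrl ran from MCFD2 (359 ± 16.0, SD, n = 2) through LMAN1 (222 ± 27.3), SEC23B (182 ± 5.34), SEC23A (148 ± 15.5) and LMAN2 (78.5 ± 0.567) to SEC24B (40.5 ± 3.28), SEC24C (35.2 ± 2.47), SEC24A (28.5 ± 2.26) and SEC24D (16.5 ± 1.37 CPM per kilobase). No 2 neighbours in this order overlapped in the Ctrl libraries. In shSTAU1 MCFD2 held rank 4, at 102 ± 7.92, behind LMAN1 at 217 ± 20.3, SEC23B at 216 ± 4.45 and SEC23A at 167 ± 24.0. There LMAN1 overlapped SEC23B and SEC24B overlapped SEC24C. Per kilobase of whole transcript MCFD2 had rank 6 in Ctrl and SEC23B first, so the place of MCFD2 depends on the scale. With exome capture this is an order of captured reads, and an order of transcript amounts was not tested.

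Over the 9 measured genes the median log2 fold change was -0.03, beside 0.01 over all tested genes. The groups did not overlap for 5 of the 9, 3 lower and 2 higher, beside 56.6% of all tested genes (28.0% lower and 28.5% higher). That share is near the background. The smallest two-sided p that exact permutation of 2 against 2 libraries allows is 0.333.

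**Figure D4:**
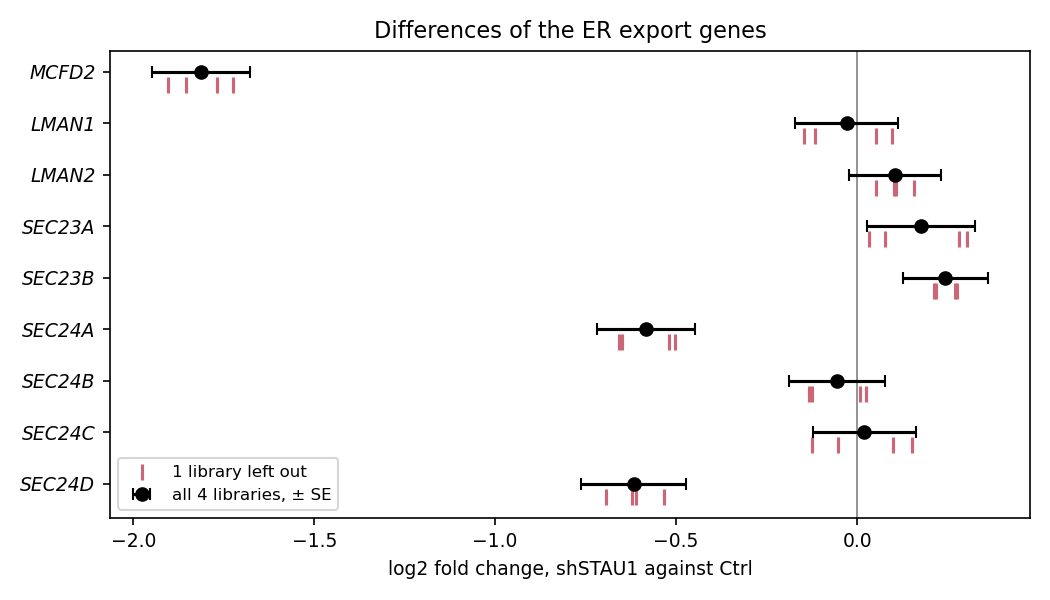
Log2 fold change of shSTAU1 against Ctrl (horizontal axis) for each measured export gene, with points and bars for the fit on all 4 libraries ± SE and red ticks for the 4 fits that each leave out 1 library. MCFD2, SEC24A and SEC24D are below 0 and LMAN2, SEC23A and SEC23B above 0 in each of these fits, while LMAN1, SEC24B and SEC24C fall on both sides.

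The other genes of the pathway were taken from 6 lists of 85 genes, of which 78 were tested. Of these, 0 rose and 2 fell in edgeR's test, F5 and CREB3L2, or 2.56% beside 2.6% of all genes. DESeq2 called 0 higher and 3 lower (3.85%, beside 10.1% of all genes), and limma-voom 0 higher and 2 lower (2.56%, beside 2.54%). An unadjusted edgeR p under 0.05 was found for 9 of the 78, beside 24.5% of all genes. The groups did not overlap for 29 genes that were higher and 14 that were lower in shSTAU1. Together these were 55.1% of the 78, beside 56.6% of all genes (28.5% higher and 28.0% lower). The median log2 fold change was 0.10.

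Of the 14 tested coat and exit site factors, which include SAR1, SEC13, SEC31 and SEC16, 0 passed in edgeR and 0 had an unadjusted p under 0.05, beside 24.5% of all genes. Their median log2 fold change was 0.13. The largest differences were those of PDCD6 and SEC23IP. PDCD6, a calcium-binding partner of SEC31, had -0.73 (SE 0.33, adjusted p = 0.221). It rested on few reads, with 101 and 95 counts in Ctrl and 65 and 60 in shSTAU1. SEC23IP, which binds SEC23, had 0.28 (SE 0.16, adjusted p = 0.304). Leaving out 1 library gave 0.08 to 0.46 for SEC23IP, which passed without shSTAU1 replicate 1 (adjusted p = 0.0231, range over its 11 alternatives 0.0065 to 0.815). MIA2, an exit site protein for large cargo and the most abundant of the list, had 242 and 239 CPM in Ctrl and 257 and 254 CPM in shSTAU1.

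Among 16 tested export receptors other than LMAN1, LMAN2 and SURF4, 0 passed in edgeR, and the median was 0.10. Of these, 2 had an unadjusted p under 0.05, beside 24.5% of all genes. CNIH1, LMAN2L, TMED2 and TMED4 passed with replicate number as a block, beside 28.6% of all genes. LMAN2L, a lectin close to LMAN2, had a log2 fold change of -0.61 (SE 0.31, adjusted p = 0.275). It ran from -0.20 without shSTAU1 replicate 1 to -1.17 without shSTAU1 replicate 2, where it passed (adjusted p = 0.00087, the lowest of its 11 alternatives, the highest being 0.649). The p24 family member TMED2 had 0.41 (SE 0.14, adjusted p = 0.132) and passed without shSTAU1 replicate 1 (0.55, adjusted p = 0.0046; 0.26 without shSTAU1 replicate 2, range over its 11 alternatives 0.0019 to 0.531). The most abundant, ERGIC3, had 0.16 (SE 0.12, adjusted p = 0.449).

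For the next steps of transport, 0 of 15 tested tethers and SNAREs passed in edgeR (median 0.11). Of these, 2 had an unadjusted p under 0.05, beside 24.5% of all genes. GOLGA2 and USO1 passed with replicate number as a block, beside 28.6% of all genes. The Golgi matrix protein GOLGA2 had a log2 fold change of -0.43 (adjusted p = 0.168), the SNARE-recycling factor NAPA 0.37 (adjusted p = 0.206) and SCFD1, a partner of syntaxin 5, -0.21 (adjusted p = 0.393). Leaving out 1 library gave -0.33 to -0.09 for SCFD1 and -0.63 to -0.25 for GOLGA2, which passed without shSTAU1 replicate 1 (adjusted p = 0.0024, range over its 11 alternatives 0.0017 to 0.585). NSF, the ATPase that separates SNARE complexes, was listed at 0 in all 4 libraries beside its neighbours WNT3 and WNT9B, and the cause was not tested. For return to the ER by COPI, 0 of 20 genes passed in edgeR, with a median of 0.11. An unadjusted p under 0.05 was found for 0, again beside 24.5%. With replicate number as a block ARF1, GBF1 and KDELR2 passed, beside 28.6% of all genes. BNIP1, an ER SNARE, had -0.38 (adjusted p = 0.353; -0.53 to -0.20 with 1 library left out), the KDEL receptor KDELR3 had -0.37 (adjusted p = 0.662) with overlapping groups, and the coat subunit COPB2 had 0.21 (adjusted p = 0.304).

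The 10 cargo proteins included F5, coagulation factor V, which LMAN1 and MCFD2 carry together. F5 had 252 and 188 counts in Ctrl and 15 and 52 counts in shSTAU1. It fell, with a log2 fold change of -2.79 (SE 0.52, edgeR adjusted p = 0.0405), and both shSTAU1 libraries were below both Ctrl libraries. The size rested on few counts, with -2.16 without shSTAU1 replicate 1 and -3.94 without shSTAU1 replicate 2, and the call was lost without Ctrl replicate 1 (adjusted p = 0.490) and with no filter on low counts (adjusted p = 0.116). Over its 11 alternatives the adjusted p ran from 7.1e-16 to 0.490.

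F8, coagulation factor VIII and the other cargo of the complex, had 53 and 15 counts in Ctrl and 52 and 73 counts in shSTAU1. Its groups overlapped, with a log2 fold change of 0.80 (SE 0.59, adjusted p = 0.434), or 1.95 without Ctrl replicate 1 and 0.18 without Ctrl replicate 2. COL7A1, a large collagen and the most abundant cargo listed, had 1334 and 1383 CPM in Ctrl and 999 and 1030 CPM in shSTAU1, with a log2 fold change of -0.42 (SE 0.12, adjusted p = 0.0849). COL7A1 had -0.28 with the length and GC correction (adjusted p = 0.280), and -0.45 to -0.39 with any 1 library left out. Among the alternatives on all 4 libraries, it passed with DESeq2 (adjusted p = 0.0451). It also passed with replicate number as a block (adjusted p = 0.00078, or 0.0425 with that correction). Of the 8 tested cargo genes 1 passed in edgeR, 12.5% beside 2.6% of all genes, and the median was -0.17. An unadjusted edgeR p under 0.05 was found for 3 of the 8, beside 24.5% of all genes. With replicate number as a block F5, COL7A1 and CTSC passed, beside 28.6% of all genes.

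Among 5 regulators of secretory genes, CREB3L2, a membrane-bound transcription factor released from the ER and known to act on COPII genes, had 613 and 549 counts in Ctrl and 291 and 272 counts in shSTAU1. It fell, with a log2 fold change of -1.12 (SE 0.19, edgeR adjusted p = 0.0360). The call was lost without Ctrl replicate 1 (adjusted p = 0.490), without Ctrl replicate 2 (adjusted p = 0.131) and with no filter (adjusted p = 0.0989), and the adjusted p ran from 1.3e-07 to 0.490 over its 11 alternatives. Its relative CREB3L1 had 21 and 33 counts in Ctrl and 58 and 40 in shSTAU1 (log2 fold change 0.78, adjusted p = 0.358), or 0.47 without Ctrl replicate 1 and 1.16 without Ctrl replicate 2. ATF6, a sensor of the unfolded protein response, had a log2 fold change of -0.02 (adjusted p = 0.948) with overlapping groups. XBP1, the other factor named with TGACGTGG and chosen after its values were seen, had 17.6 and 16.3 CPM in Ctrl and 12.5 and 11.3 CPM in shSTAU1 (log2 fold change -0.51, SE 0.19, adjusted p = 0.148).

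**Figure D5:**
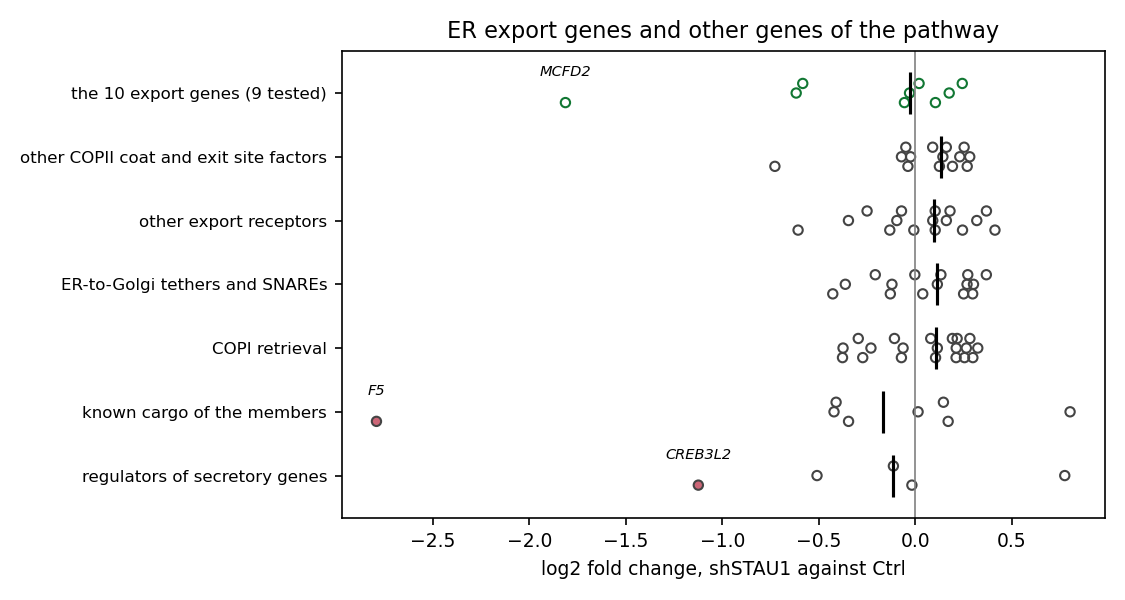
Log2 fold change of shSTAU1 against Ctrl (horizontal axis) for the measured export genes (green, shown without calls) and the tested genes of the 6 pathway lists, with filled points for genes past an adjusted p of 0.05 and vertical bars at the medians. F5 (-2.79) and CREB3L2 (-1.12) are the filled points, and the medians of the 6 lists lie between -0.17 and 0.13.

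Genes whose levels over the 4 libraries were most like those of MCFD2 were found by the Euclidean distance of centred log2 CPM. A small prior count was added before taking logs, which makes the differences of genes with few reads smaller. The nearest 5 were ANKRD44 (distance 0.126), TNFRSF11A (0.140), the processed pseudogene RPL12P21 (0.155), MGLL (0.162) and SCEL (0.171). SCEL, the squamous envelope protein sciellin, had 99.6 and 84.8 CPM in Ctrl and 22.7 and 29.1 CPM in shSTAU1. MGLL, a lipase for monoglycerides, had 30.5 and 31.2 CPM in Ctrl and 7.44 and 9.31 CPM in shSTAU1. These 4 points share the contrast that sets MCFD2 apart, so the likeness is a description. ANKRD44, the nearest by this distance, had 27 and 22 counts in Ctrl and 5 and 6 in shSTAU1. TNFRSF11A had 64 and 53 counts in Ctrl and 14 and 18 in shSTAU1. RPL12P21 had at most 15 counts in any library, and its reads may be shared with other copies of RPL12. The places of these genes in the order thus rest on few reads and on the prior count. In the edgeR fit MCFD2 had a log2 fold change of -1.81. The values were -1.83 for SCEL, -1.88 for MGLL, -1.94 for TNFRSF11A, -2.21 for ANKRD44 and -2.45 for RPL12P21, another order.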

How the data were processed

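RNA from 2 Ctrl and 2 shSTAU1 SAS samples was measured by exome-capture RNA-seq. The authors deposited raw counts per gene, whole numbers that are not normalized; the submitters' processing notes name Partek and hg38 without versions, and the counting tool, annotation and strand setting are not given in the sources used here. All 4 samples were grouped by their labels. Of the 67008 gene identifiers, 58516 matched GENCODE 29 and held 99.87% of counts, and 42204 had no read. Depth was 32206655 to 36301574 counts per library; intervals and errors cover these libraries only.

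Counts were fitted with edgeR 4.0.16 (quasi-likelihood, filterByExpr, TMM) in R 4.3.3, with Benjamini-Hochberg adjustment over 14303 genes and a threshold of 0.05. CPM values use TMM-scaled totals. The scripts were tested on simulated data. Replicates differed by more than counting noise (chi-square per degree of freedom 23.4 in Ctrl and 56.4 in shSTAU1), so each library counted once. Alternatives were DESeq2 1.42.0, limma-voom (limma 3.58.1), total-count scaling, no filter, other thresholds, a length and GC correction, a replicate block and leaving out each library. Coding length, 3′UTR and exons came from 1 GENCODE 29 transcript per gene, and promoters from RefSeq. Figures and summaries used Python 3.11.15.

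The genes, lists and 3′UTR word were chosen with earlier results of these data known. Named are the 10 export genes and STAU1; in each other list the genes past the threshold (up to 5 by adjusted p), the 2 with the largest absolute log2 fold change and the most abundant; and the 5 nearest to MCFD2.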

Additional observations from a re-analysis of the deposited data

How the results depend on the processing

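The number of genes past the threshold, 372, depended strongly on the fit. It was 1449 (773 higher, 676 lower) with DESeq2, 11 of 24804 genes with no filter, 1585 at an adjusted p of 0.10 and 2098 where a 1.5-fold difference and an unadjusted p of 0.05 served as threshold. With limma-voom, total-count scaling and the length and GC correction it was 363, 404 and 381. Leaving out 1 library gave 0 to 2780, with 0 without Ctrl replicate 1 (1502 genes at an unadjusted p under 0.05), 64 without Ctrl replicate 2, 2780 without shSTAU1 replicate 1 and 2203 without shSTAU1 replicate 2. The lone library of a group was there assumed to vary like the other group. For the other pathway genes the count of 2 became 0 with no filter (9 at an unadjusted edgeR p under 0.05, beside 3582 or 14.4% of all genes so tested), 3 with DESeq2, and 0 to 9 with 1 library left out: 0 without Ctrl replicate 1, 1 without Ctrl replicate 2 (1.28% beside 0.427% of all genes), 9 without shSTAU1 replicate 1 (11.5% beside 18.5%) and 5 without shSTAU1 replicate 2 (6.41% beside 14.5%). The cause was not tested.

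STAU1 kept its direction in its 11 alternatives and missed the threshold in one, without Ctrl replicate 1 (-2.60, edgeR adjusted p = 0.490, range over alternatives 3.3e-94 to 0.490). With 1 library left out it lay between -2.60 and -2.58. MCFD2 lay between -1.90 and -1.73 in the fits run. LMAN2 was 0.052 with total-count scaling, 0.060 with the length and GC correction, 0.055 with that correction and the block, and 0.052 to 0.157 with 1 library left out. SEC23B was 0.19 with total-count scaling, 0.30 with the length and GC correction and 0.30 with the block added, and SEC24A was -0.47 in both corrected fits. KDELR3 turned to 0.23 without Ctrl replicate 1 and 0.025 without shSTAU1 replicate 2 (-0.94 to 0.23 with 1 library left out). ATF6 turned to 0.097 with the length and GC correction, 0.097 with the block added, 0.0047 without Ctrl replicate 2 and 0.010 without shSTAU1 replicate 2 (-0.045 to 0.010 with 1 library left out). Of 198 values of 18 named pathway genes under alternatives, 171 kept direction and side of the threshold, 16 crossed to pass it, 5 lost it and 6 changed sign.

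The replicate numbers are shared by the groups, but no label says that a number marks a batch. A replicate block raised the calls to 4087 (2208 up, 1879 down), and 4249 (2596 higher, 1653 lower) with the length and GC correction added. For the other pathway genes the block gave 14 (6 higher, 8 lower; 17.9% beside 28.6% of all genes), namely F5, CREB3L2, COL7A1, CTSC, CNIH1, LMAN2L, TMED2, TMED4, GOLGA2, USO1, ARF1, GBF1, KDELR2 and XBP1, and 18 (11 higher, 7 lower; 23.1% beside 29.7%) with the correction, SEC23IP and SAR1B among them. Deviations of same-numbered libraries correlated at 0.271 over all genes and at 0.587 over 4791 genes with a mean log2 CPM above 5.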
